A study of Mus musculus with 35 samples.

Results

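The aminoacyl-tRNA synthetases were followed in OT-I cytotoxic T lymphocytes (CTLs) kept for 24 h at neutral or acidic pH, with or without interleukin-2 (IL-2). Members were the protein-coding genes whose mouse symbol is a one-letter amino acid code followed by ars, with or without a final 1 or 2, together with Eprs and the phenylalanyl subunit genes Farsa and Farsb. The rule found 37 of the 48709 genes in the count tables. By textbook role 18 of them encode cytosolic enzymes, 2 (Gars and Kars) give both a cytosolic and a mitochondrial enzyme from a single gene, and 17, whose symbols end in 2, encode mitochondrial enzymes.

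Each synthetase joins an amino acid to its own tRNA, and the charged tRNAs are what the ribosome reads. Cytosolic enzymes serve nuclear-encoded proteins, while mitochondrial enzymes, which are also encoded in the nucleus, serve the few proteins made from mitochondrial DNA. Several cytosolic enzymes sit together in the multisynthetase complex on the scaffold proteins Aimp1, Aimp2 and Eef1e1, and many cytosolic synthetase genes are known targets of ATF4, the transcription factor of the amino acid response. T cells that grow and divide in IL-2 make protein at a high rate.

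RNA was sequenced in 35 libraries of 7 groups with 5 replicates each. The cells were CD8+ T cells purified from the spleens of mice with the transgenic OT-I receptor, primed in vitro on anti-CD3 with anti-CD28, and expanded for days in 200 IU/mL IL-2, so that all groups, the 0 h cells included, had been grown in IL-2 before the test. They were then sampled at 0 h, or after 24 h in low-glucose DMEM at pH 7.4, pH 7 or pH 6.6, set with HCl, and each pH was run in medium lacking the cytokine and in medium supplemented with it at 200 IU/mL. The replicates share a number across groups, and the sources used here do not say how many mice they came from.

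Library depth ran from 16721319 to 34033340 counts on genes, with a median of 24730020, and no pair of libraries of a group agreed within sampling noise. The T cell genes Cd3e, Cd8a and Cd8b1 were abundant in every library (at least 373, 674 and 212 CPM, which are counts scaled to library size), whereas the B cell genes Ms4a1 and Pax5, the globin genes Hbb-bs and Hba-a2 and the dendritic cell gene Siglech were at 0 throughout. Other listed genes of those cells were present at low levels, up to 5.91 CPM for the B cell gene Cd79b, 6.40 CPM for the dendritic cell gene Flt3 and 3.29 CPM for the myeloid gene Itgam. The natural killer gene Klrb1c, which T cells can also express, moved with the groups, while Ncr1, the other natural killer gene, reached at most 0.069 CPM. The sum of the 2, nearly all Klrb1c, ran from 83.36 to 94.96 CPM at 0 h and 42.98 to 45.79 CPM at pH 7.4 with IL-2. It ran from 19.35 to 33.22 CPM at pH 6.6 with IL-2 and from 8.269 to 12.08 CPM at pH 6.6 without IL-2. The part of these genes in the differences described was not tested. The effector genes Gzmb (36.7 to 9010 CPM) and Prf1 (11.1 to 686 CPM) varied widely. Reads outside genes made up 2.58% to 5.95% of the libraries at 0 h and of those with IL-2 at the 2 higher pH values, and 6.47% to 11.1% of the others, and the part of this in the differences described was not tested. In bulk RNA, fewer cells of a kind and less RNA per cell cannot be told apart.

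All 37 members passed the filter on low counts. Cytosolic enzymes were the more abundant class on a length-scaled level (RPKM, reads scaled to library size and to the merged length of all annotated exons). At pH 7.4 with IL-2 the 18 cytosolic genes ranged from 10.0 to 69.4 RPKM with a median of 39.0, and the 17 mitochondrial genes from 1.798 to 16.5 RPKM with a median of 4.85. Gars, the glycyl enzyme of both compartments, led with 113 ± 10.8 RPKM (SD, n = 5), above Kars, the lysyl enzyme of both compartments, at 77.8 ± 3.60 RPKM. Vars, the valyl enzyme, at 69.4 ± 4.26 RPKM and Dars, the aspartyl enzyme, at 62.0 ± 7.83 RPKM came next, and their SDs overlapped. The lowest levels were those of the mitochondrial enzymes Mars2 (methionyl, 2.07 ± 0.216 RPKM), Ears2 (glutamyl, 1.94 ± 0.152 RPKM) and Lars2 (leucyl, 1.798 ± 0.0998 RPKM), and the SDs of neighbours in this order overlapped. This order depends on the merged lengths, which were 11294 bases for Mars2 and 11089 for Lars2 against 3094 for Pars2. Over all libraries Mars2 and Lars2 had 18314 and 13187 counts, more than the 7013 of Pars2, while Ears2 had 5504.

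Summed over genes, the cytosolic and dual synthetases were highest at 0 h and at pH 7.4 with IL-2, somewhat lower at pH 7 with IL-2, and lowest in the other groups. The sum was 3909 ± 215 CPM at 0 h and 4158 ± 260 CPM after 24 h at pH 7.4 with IL-2, and it was 1792 ± 64.9 CPM at the same pH without IL-2. At pH 6.6 with IL-2 it was 2046 ± 128 CPM, near the 2038 ± 93.8 CPM at pH 6.6 without IL-2. The lowest library at pH 7.4 with IL-2 (3786 CPM) was above the highest at pH 6.6 with IL-2 (2142 CPM), and pH 7 with IL-2 lay between them at 3153 to 3412 CPM. The mitochondrial sum moved less. It was 570.0 ± 5.47 CPM at pH 7.4 with IL-2, 453 ± 8.23 CPM without IL-2, 380.2 ± 20.8 CPM at pH 6.6 with IL-2 and 390.1 ± 17.2 CPM at pH 6.6 without IL-2.

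**Figure D1:**
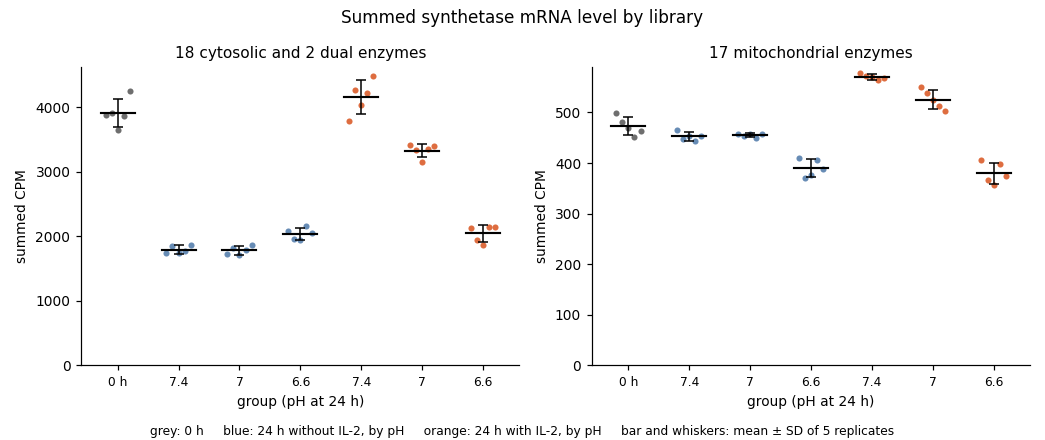
Summed mRNA level (CPM, vertical axis) of the 18 cytosolic and 2 dual synthetases (left) and of the 17 mitochondrial synthetases (right) in each library, by group on the horizontal axis, with the mean and SD of 5 replicates. The cytosolic and dual sum is highest at 0 h and at pH 7.4 with IL-2 (means of 3909 and 4158 CPM), and 2046 CPM at pH 6.6 with IL-2.

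The first question was what acid did to the synthetases while IL-2 was present. At pH 6.6 against pH 7.4 with IL-2, 31 of the 37 members fell and 1 rose, where 40.9% of all 13819 genes tested were lower and 35.4% higher. The cytosolic enzymes fell almost as a body: 16 of 18 fell, as did Gars (log2 fold change -1.24) and Kars (-1.03), and the median of the 20 was -1.25, beside a median of -0.07 over all genes. Of the 17 mitochondrial enzymes 13 fell and 1 rose, with a median of -0.79. Within each of the 5 numbered sets of cultures the median of the 20 lay between -1.44 and -0.995, and that of the 17 between -0.975 and -0.65.

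Tars, which charges threonine, fell the most. Its levels at pH 7.4 with IL-2 were 159, 181, 171, 175 and 184 CPM in replicates 1 to 5, and at pH 6.6 with IL-2 they were 53.2, 45.7, 45.3, 52.3 and 53.3 CPM. The groups were far from overlapping, and the fold was 3.49 down (log2 fold change -1.802, SE 0.06, edgeR quasi-likelihood adjusted p = 1.34e-21). Wars, the tryptophanyl enzyme, is also induced by interferon. It went from 179.8, 156, 146, 152 and 146 CPM to 47.5, 39.6, 38.6, 54.3 and 49.7 CPM (log2 fold change -1.76, SE 0.11, edgeR adjusted p = 4.47e-16), so that its highest acid library was below its lowest neutral one. Iars, the isoleucyl enzyme of the complex, stood at 198, 259, 228, 235 and 233 CPM at pH 7.4 and at 85.6, 59.2, 61.6, 73.6 and 73.2 CPM at pH 6.6 (log2 fold change -1.72, SE 0.09, edgeR adjusted p = 8.76e-18), again with no overlap. Iars shares some 50-base windows of its exons with the locus Gm4849, and 92.9% of its windows were unique among annotated exons.

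Farsb encodes the beta subunit of the cytosolic phenylalanyl enzyme, and Farsa the alpha subunit. Of the exon bases of Farsb 9.5% lie opposite Sgpp2, and 92.7% of its 50-base windows were unique. Farsb had 144, 148, 151, 139 and 152 CPM at pH 7.4 with IL-2 against 49.0, 38.4, 44.9, 46.7 and 47.6 CPM at pH 6.6 (log2 fold change -1.70, SE 0.09, edgeR adjusted p = 1.66e-17). Farsa fell by 0.86 on the log2 scale (SE 0.09), so the paired subunits moved the same way by different amounts. Hars, the histidyl enzyme, went from 136, 156, 147, 153 and 154 CPM to 46.5, 40.3, 41.0, 51.7 and 53.2 CPM (log2 fold change -1.68, SE 0.07, edgeR adjusted p = 8.19e-20), with no overlap.

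The other cytosolic falls were Nars (asparaginyl, -1.56), Yars (tyrosyl, -1.41), Lars (leucyl, -1.34), Aars (alanyl, -1.26), Cars (cysteinyl, -1.25), Rars (arginyl, -1.25), Eprs (the fused glutamyl and prolyl enzyme, -1.23), Mars (methionyl, -1.13), Dars (-1.11) and Vars (-0.33), all as log2 fold changes. Aars has 14.3% of its exon bases in common with Exosc6 on the same strand, so some of its reads cannot be assigned. The 2 cytosolic genes outside the pattern were Sars, the seryl enzyme (-0.06, SE 0.09, edgeR adjusted p = 0.533), and Qars, the glutaminyl enzyme (0.10, SE 0.06, edgeR adjusted p = 0.122). Qars passed the threshold upward under 6 of the 11 refits, with log2 fold changes from 0.14 to 0.17.

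In mitochondria the falls were led by Ears2 (-1.46), Nars2 (asparaginyl, -1.43), Yars2 (tyrosyl, -1.37), Rars2 (arginyl, -1.31) and Sars2 (seryl, -1.28). Cars2 (cysteinyl, -0.93), Iars2 (isoleucyl, -0.82), Vars2 (valyl, -0.79), Lars2 (-0.78), Pars2 (prolyl, -0.52), Aars2 (alanyl, -0.32) and Hars2 (histidyl, -0.14) fell less. The falls of Aars2 and Hars2 were lost under several alternatives, at edgeR adjusted p = 0.0816 and 0.22 with relative log expression size factors for example. Mars2 (-0.14), Tars2 (threonyl, -0.08) and Wars2 (tryptophanyl, -0.01) did not pass the test. Iars2 has 24.2% of its exon bases opposite another gene, and the strand setting of the counting is not given in the sources used here.

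Fars2, the mitochondrial phenylalanyl enzyme, was the only member to rise. It had 12.9, 11.9, 12.3, 13.99 and 13.5 CPM at pH 7.4 with IL-2 and 32.01, 38.1, 37.3, 34.4 and 33.6 CPM at pH 6.6 with IL-2, with no overlap (2.72-fold up, log2 fold change 1.44, SE 0.09, edgeR adjusted p = 2.96e-15). Part of its exons (10.7% of bases) lies opposite other genes, and 91.1% of its 50-base windows are unique. Among the 28 members with at least 95% unique windows, 23 fell and 0 rose in this contrast. Its cytosolic counterparts Farsa and Farsb fell. Phenylalanine was among the 12 of 17 amino acids for which the cytosolic log2 fold change was below the mitochondrial one. Other wide gaps were for tryptophan (Wars -1.76, Wars2 -0.01), threonine (Tars -1.802, Tars2 -0.08) and histidine (Hars -1.68, Hars2 -0.14). Serine went the other way (Sars -0.06, Sars2 -1.28). Hars and Hars2 lie partly opposite each other, over 8.0% and 4.6% of their exon bases.

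**Figure D2:**
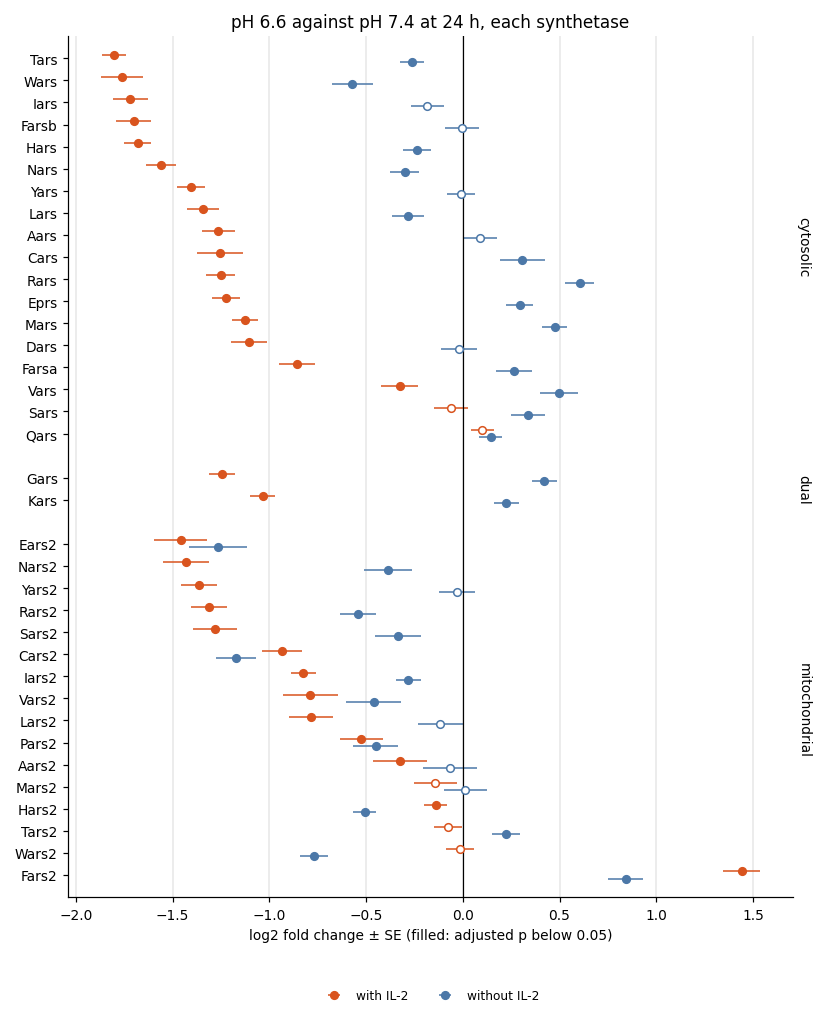
Log2 fold change (horizontal axis, with SE) of each of 36 synthetases at pH 6.6 against pH 7.4, with IL-2 (orange) and without IL-2 (blue), grouped by role and ordered by the value with IL-2. Filled points passed an adjusted p of 0.05; most orange points lie left of 0 (31 of all 37 members lower), while the blue points of the cytosolic and dual enzymes spread around 0 and Fars2 is right of 0 in both (1.44 and 0.84).

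The other lists of the charging machinery were read beside the members. Of the 3 scaffold genes of the multisynthetase complex, Aimp2 (-2.46, SE 0.12, edgeR adjusted p = 3.19e-18) and Eef1e1 (-2.07) fell, more than any of the 37 enzymes, while Aimp1 rose (0.34, SE 0.11, adjusted p = 0.00545). The 8 enzymes of the complex had a median of -1.18, with 7 lower, and the 12 cytosolic or dual enzymes outside it a median of -1.335, with 11 lower. Of 17 partners of charging, such as elongation factors and tRNA export, 10 fell and 4 rose, with Ptrh2, a peptidyl-tRNA hydrolase, falling by 1.11 on the log2 scale and Pstk, the kinase of selenocysteine synthesis, rising by 0.72. Mitochondria have no glutaminyl enzyme and make that charged tRNA by amidation of one charged by Ears2. Of 6 mitochondrial partners 5 fell, led by Gatb, a subunit of that amidotransferase (-1.58, SE 0.11).

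Of 29 amino acid response genes 20 fell and 4 rose, with a median of -1.12. The amino acid transporter gene Slc7a5 fell by 3.13 on the log2 scale and Ddit3, which encodes the stress factor CHOP, rose by 1.77. Ddit3 lies opposite the end of Mars, over 2.0% of the exon bases of Mars, and moved against it. Of the 20 cytosolic or dual synthetases 12 are often listed as ATF4 targets, and 11 of those 12, all but Sars, fell, with a median of -1.30. The 8 off that list had 7 lower and a median of -1.07.

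A short motif bound by ATF4 with its C/EBP partners was looked for in the RefSeq promoters (build GRCm38.p6, 250 bases before to 50 after the start). Of the 37 members 27 had an entry, 13 cytosolic or dual and 14 mitochondrial. The letters TGATGNAA, on either strand, were present in 5 of the 13 (38.5%), in 0 of the 14, and in 3.97% of the 32851 promoters of the table. The 5 were Aars, Gars, Iars, Tars and Yars, all on the ATF4 list, and 3 other listed members with an entry (Eprs, Mars and Sars) had no match. A match describes letters in a window and is not a measured binding site. All 5 fell in acid with IL-2, as did Dars, Eprs, Farsa, Farsb, Kars and Mars, which had an entry and no match. Qars and Sars, also without a match, did not pass the test there. The 30 bases around a match in each of these 5 genes follow, on the strand of the gene. Aars has another match, from -112, which is not printed. Capitals mark the match, and the position of its first base is counted from the start, with no position 0. Of the 250 bases before that start, 202 for Aars, 218 for Yars, 30 for Iars and 7 for Tars lie in annotated exons, and 0 for Gars. The annotated Aars and Yars genes begin upstream of the RefSeq start used, so these positions depend on that start.
Aars (chr8:111033840-111033869, plus strand, match from 10): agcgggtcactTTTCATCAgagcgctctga
Gars (chr6:55037960-55037989, plus strand, match from -30): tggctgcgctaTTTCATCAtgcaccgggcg
Iars (chr13:49682126-49682155, plus strand, match from 8): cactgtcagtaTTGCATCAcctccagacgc
Tars (chr15:11399655-11399684, minus strand, match from -15): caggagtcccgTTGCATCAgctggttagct
Yars (chr4:129189895-129189924, plus strand, match from 4): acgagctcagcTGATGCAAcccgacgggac

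The upstream sequences of Tars and Gars follow with the same capitals. Tars had the largest fall in acid with IL-2, and Gars the highest RPKM at pH 7.4 with IL-2. The Tars run stops short of the start, at the first annotated exon base.
Tars (chr15:11399666-11399908, minus strand): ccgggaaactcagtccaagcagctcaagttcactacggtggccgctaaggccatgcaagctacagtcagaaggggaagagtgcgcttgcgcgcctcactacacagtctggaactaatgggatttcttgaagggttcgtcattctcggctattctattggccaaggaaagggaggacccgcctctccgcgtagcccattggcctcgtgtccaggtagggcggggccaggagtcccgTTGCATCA
Gars (chr6:55037751-55038000, plus strand): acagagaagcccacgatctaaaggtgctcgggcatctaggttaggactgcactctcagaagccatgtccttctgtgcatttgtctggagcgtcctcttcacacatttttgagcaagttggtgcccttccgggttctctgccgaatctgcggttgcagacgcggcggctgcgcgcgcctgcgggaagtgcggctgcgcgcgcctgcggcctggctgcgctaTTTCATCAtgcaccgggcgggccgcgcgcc
A second motif, CACGTG, the E-box that c-Myc and other factors bind, was in 4 of the 13 (Aars, Farsb, Iars and Tars), in 1 of the 14 (Ears2) and in 7.15% of all promoters.

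A milder step, pH 7 against pH 7.4 with IL-2, also lowered part of the family. Of the 37 members 20 fell and 0 rose, where 9.83% of all genes were lower and 9.15% higher. The falls were almost all of cytosolic or dual enzymes, 17 of 20 with a median of -0.36, against 3 of 17 mitochondrial enzymes (Yars2 -0.46, Rars2 -0.26 and Iars2 -0.20) with a median of -0.08. Cars fell the most, from 44.5, 63.1, 55.7, 76.2 and 91.0 CPM to 33.8, 38.8, 34.99, 44.5 and 46.2 CPM (log2 fold change -0.73, SE 0.12, edgeR adjusted p = 4.59e-05). The Cars groups overlap, since the lowest neutral library (replicate 1) is below the highest library at pH 7, while each replicate was lower than its own neutral culture. Nars, second, went from 208, 250.4, 241, 262 and 293 CPM to 171, 166, 149.6, 173 and 179.5 CPM (log2 fold change -0.58, SE 0.07, edgeR adjusted p = 2.78e-06) with no overlap.

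Of the cytosolic or dual enzymes Vars and Qars (-0.05) were not called in this step, and neither was Wars, which had the highest value of them. It had 219, 174, 167, 154 and 149.7 CPM at pH 7 with IL-2 and did not pass the test (log2 fold change 0.15, SE 0.10, edgeR adjusted p = 0.338; with only the groups compared in the fit it was called higher, at 0.162 and adjusted p = 0.0457), whereas Tars (-0.56), Iars (-0.57) and Hars (-0.36), its neighbours in the step to pH 6.6, fell. Of 10 interferon response genes 3 rose and 0 fell at pH 7 with IL-2, led by Irf1 (0.63), while 8 fell and 1 rose at pH 6.6, led by Gbp2 (-1.36) and Tap1 (0.22). Their part in the Wars values was not tested. Lars2 was not called at pH 7 (-0.12, edgeR adjusted p = 0.504). Of the 20 falls 13 held under all the alternatives, and those of Dars, Farsa, Iars2, Kars, Lars, Rars2 and Sars did not.

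Among the other lists at pH 7 with IL-2, 17 of the 29 amino acid response genes fell and 0 rose (median -0.40), led by Eif4ebp1, a brake on translation initiation (-0.71). Aimp2 (-0.47) and Eef1e1 fell. Of the charging partners 3 of 17 fell, led by the elongation factor subunit gene Eef1g (-0.33), and of the mitochondrial partners 1 of 6 (Gatb, -0.34).

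Acid without IL-2 gave another picture. At pH 6.6 against pH 7.4 without IL-2, 12 members rose and 16 fell, where 31.6% of all genes were higher and 35.4% lower. Of the 20 cytosolic or dual enzymes 10 rose and 5 fell (median 0.12), and of the 17 mitochondrial enzymes 2 rose and 11 fell (median -0.385). Within single replicate sets the median ran from -0.007 to 0.252 for the cytosolic or dual enzymes and from -0.557 to -0.287 for the mitochondrial ones. The rises were Rars (0.60), Vars (0.50), Mars (0.47), Gars (0.42), Sars (0.34), Cars (0.31), Eprs (0.29), Farsa (0.27), Kars (0.22) and Qars (0.15), with Fars2 (0.84) and Tars2 (0.22) in mitochondria. Those of Cars, Farsa, Qars and Tars2 did not hold under every alternative, and the fall of Sars2 (-0.33) did not either. The cytosolic falls were Wars (-0.57), Nars (-0.30), Lars (-0.28), Tars (-0.26) and Hars (-0.24).

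The largest change was that of Ears2. It had 4.33, 4.55, 4.28, 4.63 and 6.38 CPM at pH 7.4 without IL-2 and 1.85, 2.29, 1.54, 2.70 and 1.55 CPM at pH 6.6 without IL-2, with no overlap (log2 fold change -1.27, SE 0.15, edgeR adjusted p = 8.26e-09). With IL-2 the same enzyme went from 9.04, 9.58, 9.81, 10.3 and 11.1 CPM to 4.33, 3.20, 2.14, 4.48 and 4.21 CPM. Cars2 had 39.8, 37.3, 41.4, 39.9 and 40.8 CPM at pH 7.4 and 17.8, 17.02, 14.4, 20.7 and 18.7 CPM at pH 6.6, again without overlap (log2 fold change -1.17, SE 0.10, edgeR adjusted p = 1.5e-11). With IL-2 the acid value of Cars2 was -0.93, and its interaction was not past the threshold (0.24, SE 0.14, edgeR adjusted p = 0.145), though it was with only the groups compared (adjusted p = 0.0464) and without replicate 1 (adjusted p = 0.0249). Fars2 rose from 24.7, 27.997, 28.5, 23.7 and 26.2 CPM to 44.0, 42.5, 47.3, 51.7 and 49.6 CPM (log2 fold change 0.84, SE 0.09, edgeR adjusted p = 1.07e-09), and the groups did not overlap.

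Wars2 (-0.77), Rars2 (-0.54), Hars2 (-0.51), Vars2 (-0.46), Pars2 (-0.45), Nars2 (-0.39) and Iars2 (-0.28) also fell without IL-2. Not called were Aars (0.09), Dars (-0.02), Farsb (-0.00), Iars (-0.18), Yars (-0.01), Aars2 (-0.07), Lars2 (-0.12), Mars2 (0.01) and Yars2 (-0.03). Iars was called lower with a stricter filter (edgeR adjusted p = 0.0488), with only the groups compared (0.0365) and without replicate 1 (0.00767). The amino acid response list had 12 of 29 higher and 6 lower, with a median of 0.265, led by the transporter subunit gene Slc3a2 (1.65) and the serine synthesis gene Psph (-0.63). Of the scaffold genes Eef1e1 rose (0.40) and the other 2 did not pass the test. The charging partners had 8 higher and 3 lower of 17, led by the elongation factor Eef1a1 (0.73) and the D-aminoacyl-tRNA deacylase gene Dtd1 (-0.82), and of the mitochondrial partners Tufm (0.47) rose and Gatb (-1.32) and 1 other fell. Of the interferon genes 7 of 10 fell and 0 rose, beside the fall of Wars.

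At pH 7 against pH 7.4 without IL-2, 0 of the 37 members were called, where 1.68% of all genes were called in either direction. By unadjusted p, 0 members were under 0.05, and DESeq2 also called 0. The log2 fold changes ran from -0.16 (Wars) to 0.27 (Aars2), with Lars2 at 0.00 and a median of -0.00. With only the groups compared in the fit, Wars was called lower (-0.17, edgeR adjusted p = 0.0392), a gene named after its values were seen. Of the other lists, 3 of 10 interferon genes fell, and 0 of the 29 amino acid response genes, 17 charging partners, 6 mitochondrial partners and 3 scaffold genes were called.

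IL-2 itself was compared with no IL-2 at each pH. At pH 7.4, 31 of the 37 members were higher with IL-2 and 3 lower, where 39.3% of all genes were higher and 41.1% lower. All cytosolic and dual enzymes but Qars (-0.08, edgeR adjusted p = 0.241) rose, with a median of 1.47. Of the 17 mitochondrial enzymes 12 rose and 3 fell (median 0.50). For 14 of 17 amino acids the cytosolic log2 fold change was above the mitochondrial one. Farsb rose the most, from 35.1, 39.4, 33.3, 42.1 and 35.4 CPM without IL-2 to 144, 148, 151, 139 and 152 CPM with it (log2 fold change 1.99, SE 0.09, edgeR adjusted p = 1.54e-19). Rars, in the complex, went from 47.4, 53.9, 46.4, 53.5 and 48.4 CPM to 181, 200.0, 195, 186 and 211 CPM (log2 fold change 1.96, SE 0.08, edgeR adjusted p = 2.57e-21). Neither gene's groups overlapped. Hars went from 41.1, 44.2, 41.0, 41.0 and 41.1 CPM to 136, 156, 147, 153 and 154 CPM (log2 fold change 1.84, SE 0.07, edgeR adjusted p = 2.08e-21), with no overlap.

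The smallest cytosolic rises were those of Sars (0.24), which was lost under several alternatives (edgeR adjusted p = 0.0513 with a stricter filter), and Vars (0.64). The rises of Aars2 and Mars2 were lost likewise, here and at pH 7. Wars rose by 1.62 and Lars2 by 0.60 on the log2 scale. The members lower with IL-2 were Fars2 (-1.02), Wars2 (-0.79) and Hars2 (-0.48), all mitochondrial, while Cars2 (-0.18) and Tars2 (0.12) were not called. Cars2 was called lower under 3 alternatives, with edgeR adjusted p from 0.0225 to 0.0378, and under 6 at pH 7. The amino acid response list had 24 of 29 higher, led by Slc7a5 (4.06), and 2 lower, led by Ddit3 (-1.98). Eef1e1 (2.99) and Aimp2 rose and Aimp1 fell (-0.47). The charging partners had 10 of 17 higher, led by Tarsl2, a second cytosolic threonyl enzyme gene that the symbol rule leaves out (1.48), and 2 lower, led by Pstk (-0.95), and all 6 mitochondrial partners rose, led by the amidotransferase subunit gene Qrsl1 (1.39). The interferon list was divided, with 3 higher (Psmb8, 0.92) and 3 lower (Tap1, -0.25).

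At pH 7 the picture was close to this: 30 members were higher with IL-2 and 4 lower, where 37.6% of all genes were higher and 39.5% lower, with a median over members of 0.89. Wars led, from 37.4, 49.8, 41.6, 49.7 and 47.8 CPM without IL-2 to the levels given above for pH 7 with IL-2 (1.93, SE 0.11, edgeR adjusted p = 3.56e-17). Farsb was next, from 36.7, 32.98, 34.4, 37.7 and 36.6 CPM to 120.5, 101.4, 100.5, 120.6 and 122.6 CPM (1.66, SE 0.09, edgeR adjusted p = 2.09e-17). The groups of both genes were apart. The lower members were Fars2 (-1.07), Wars2 (-0.74), Hars2 (-0.45) and Qars (-0.19), the last of which did not hold under every alternative. Lars2 rose (0.48). The amino acid response list had 21 of 29 higher (Psat1, 3.42) and 3 lower (Ddit3, -1.57), the scaffold genes 2 higher (Aimp2, 2.55) and Aimp1 lower (-0.71), and the charging partners 9 of 17 higher (Tarsl2, 1.44) and 2 lower (Pstk, -0.81). Higher too were 4 of 6 mitochondrial partners (Tsfm, 1.12) and 7 of 10 interferon genes (Gbp2, 1.09). At pH 6.6 most of the response was not there. Of the 37 members 7 were higher with IL-2 and 2 lower, where 13.2% of all genes were higher and 10.6% lower, and the median over members was 0.09. The higher ones were Ears2 (0.86), Wars (0.43), Hars (0.39), Pars2 (0.37), Nars2 (0.34), Farsb (0.29) and Tars (0.21), and the lower ones were Fars2 (-0.42) and Cars (-0.33). The calls of Tars, Farsb, Nars2 and Cars did not hold under every alternative. Lars2 was not called (-0.07). With only the groups compared in the fit, 15 members were higher and 4 lower, and 5369 of 12514 genes were then called against 3278 of 13819. The cause was not tested. Of the other lists, 9 of 29 amino acid response genes were higher (Stc2, 1.63) and 3 lower (Ddit3, -0.47). Higher too were 2 of 3 scaffold genes (Aimp2, 0.56), 2 of 17 charging partners (Ptrh2, 0.34) and 1 of 10 interferon genes, and 0 of 6 mitochondrial partners were called.

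**Figure D3:**
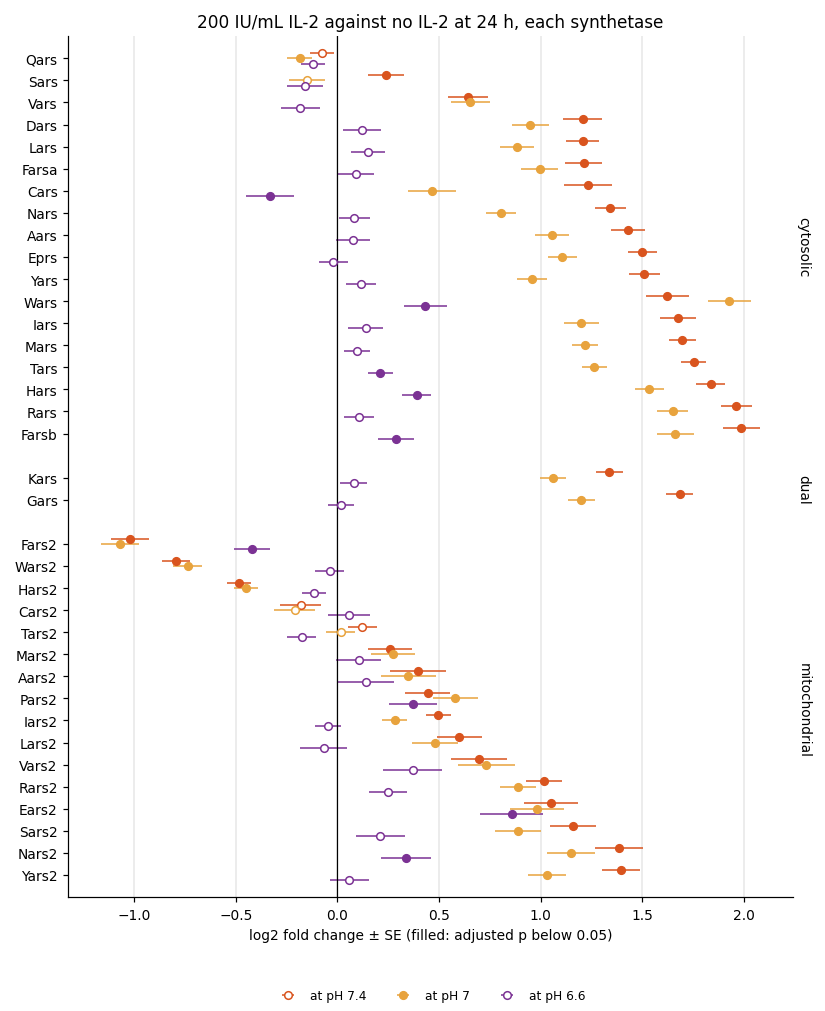
Log2 fold change (horizontal axis, with SE) of each of 36 synthetases for 200 IU/mL IL-2 against no IL-2 at pH 7.4, pH 7 and pH 6.6, grouped by role and ordered by the value at pH 7.4; filled points passed an adjusted p of 0.05. The values at pH 6.6 gather near 0 (median over all 37 members 0.09), while those at pH 7.4 lie mostly to the right (median 1.21) and Fars2, Wars2 and Hars2 lie left of 0.

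The interaction term asks whether the step to pH 6.6 differed with and without IL-2. It was called negative for 27 members and called positive for 3, where 32.8% of all genes were lower and 34.3% higher. It was called negative for 19 of the 20 cytosolic or dual enzymes (median -1.38) and for 8 of 17 mitochondrial ones (median -0.30). The terms of Sars and Tars2 did not hold under every alternative. Rars had the largest interaction. Without IL-2 it went from 49.9 ± 3.52 CPM at pH 7.4 to 74.1, 79.3, 75.6, 75.2 and 75.1 CPM at pH 6.6, and with IL-2 from 195 ± 11.9 CPM to 86.4, 75.0, 74.5, 79.5 and 93.9 CPM. Acid thus went with a rise of Rars in the absence of IL-2 and with a fall in its presence (interaction -1.86, SE 0.11, edgeR adjusted p = 3.73e-16), and the pH 6.6 groups overlapped. Farsb, at 38.2, 37.3, 37.8, 34.3 and 37.0 CPM at pH 6.6 without IL-2, was level across pH there, which gave -1.70 (SE 0.13, edgeR adjusted p = 1.89e-13).

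Gars had the next interaction. Without IL-2 it rose from 105, 116, 108, 109.9 and 109.7 CPM at pH 7.4 to 150.2, 141, 139, 153 and 151 CPM at pH 6.6. With IL-2 it fell from 307, 354, 342, 362 and 400.1 CPM to 152, 136, 143, 154 and 159 CPM. The 2 acid groups overlapped while the 2 neutral groups were far apart (interaction -1.66, SE 0.09, edgeR adjusted p = 1.54e-16). Wars had an interaction of -1.19 (SE 0.15) and Lars2 of -0.67 (SE 0.16). The terms called positive were those of Wars2 (0.76, SE 0.10), Fars2 (0.60, SE 0.13) and Hars2 (0.37, SE 0.08). Wars2 was at 25.1 ± 1.49 CPM at pH 7.4 without IL-2 and at 14.7 ± 1.36, 14.5 ± 1.16 and 14.3 ± 1.08 CPM at pH 6.6 without IL-2, pH 7.4 with IL-2 and pH 6.6 with IL-2, so either acid or IL-2 went with the lower level and both together with no lower one.

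Of the other lists, the interaction was called negative for 23 of 29 amino acid response genes and positive for 1 (Slc7a5 -3.32, Ddit3 1.51). It was called negative for 2 of 3 scaffold genes (Eef1e1 -2.47) and for 4 of 6 mitochondrial partners (Qrsl1 -1.18). Of 17 charging partners it was called negative for 11 and positive for 2 (Eef1g -1.40, Pstk 0.87). Of 10 interferon genes it was called negative for 3 and positive for 3 (Psmb8 -0.76).

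**Figure D4:**
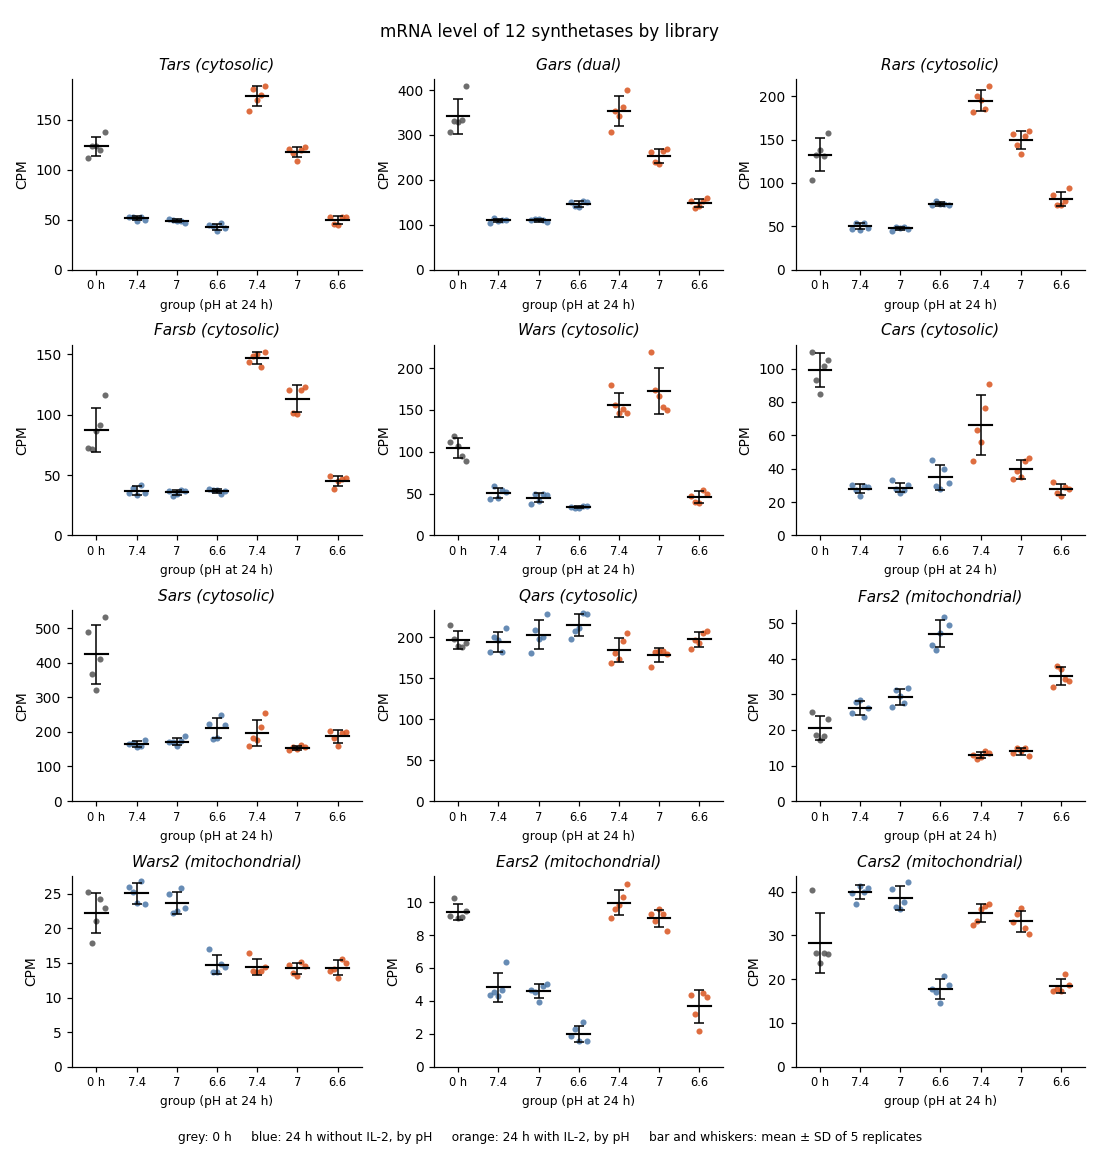
mRNA level (CPM, vertical axes from 0) of 12 synthetases in each library, by group, with the mean and SD of 5 replicates. Tars, Gars, Rars and Farsb are high only at 0 h and with IL-2 at pH 7.4 and pH 7, Qars is nearly level (178 to 215 CPM as group means), Fars2 is highest at pH 6.6, and Cars2 and Ears2 fall at pH 6.6 with and without IL-2.

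Cells at pH 6.6 with IL-2 were also set against cells at pH 7.4 without IL-2, to ask how near acid in the presence of the cytokine came to its withdrawal. Of the 37 members 9 were higher and 8 lower in acid with IL-2, where 30.4% of all genes were higher and 34.1% lower, and 20 were not called, with a median of 0.03. The higher ones were Rars (0.71), Mars (0.57), Gars (0.44), Fars2 (0.42), Farsa (0.36), Vars (0.31), Kars (0.30), Farsb (0.29) and Eprs (0.27), so 8 of the 9 were cytosolic or dual. The lower ones included Cars2 (-1.11), Wars2 (-0.81), Hars2 (-0.62), Ears2 (-0.41), Iars2 (-0.33) and Rars2 (-0.30) in mitochondria, and the cytosolic Nars (-0.22). Those of Ears2, Rars2 and Nars did not hold under every alternative. Not called in the main fit, Aars (0.22), Hars (0.207) and Sars (0.231) were called higher with relative log expression size factors and with DESeq2. Wars (-0.14, edgeR adjusted p = 0.248) and Lars2 (-0.18, adjusted p = 0.167) were not called. Of the amino acid response genes 15 of 29 were higher, led by Stc2 (1.88), and 4 lower, led by Trib3, a pseudokinase induced by ATF4 (-0.81), and 6 of 10 interferon genes were lower (Gbp2, -1.28). Eef1e1 (0.92) and 1 other scaffold gene were higher, as were 8 of 17 charging partners (Tarsl2, 0.75) with 3 lower (Dtd1, -0.76), and the mitochondrial partners had Tufm higher (0.38) and 2 of 6 lower (Gatb, -1.10).

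Last, the neutral cultures were set against the 0 h cells from which they came. At pH 7.4 with IL-2 against 0 h, 17 members were higher and 7 lower, where 29% of all genes were higher and 30.9% lower, with a median of 0.21. Sars, which charges serine, changed the most. It stood at 488, 367, 322, 411 and 533 CPM at 0 h and at 158, 181, 176, 215 and 254 CPM at pH 7.4 with IL-2 (log2 fold change -1.10, SE 0.09, edgeR adjusted p = 3.72e-12), with no overlap. At pH 7.4 without IL-2 it was 165 ± 8.25 CPM, and it fell from 0 h there too (-1.34), as did Cars, Yars and Nars. Farsb rose from 72.3, 71.4, 86.7, 91.2 and 117 CPM to 144, 148, 151, 139 and 152 CPM (log2 fold change 0.76, SE 0.09, edgeR adjusted p = 7.11e-09), again with no overlap.

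The other members lower than at 0 h were Fars2 (-0.66), Wars2 (-0.62), Cars (-0.59), Hars2 (-0.30), Yars (-0.30) and Nars (-0.17), the last lost under some alternatives. Wars (0.58) and Lars2 (0.33) were higher, and the calls of Lars2, Cars2, Mars and Vars2 did not hold under every alternative. Lars2 holds sequence like ribosomal RNA. Of the 2 transcripts of that kind tested, Gm42418 was lower here (-1.26), rose in acid with IL-2 (1.12) and was lower with IL-2 at pH 7.4 (-0.60), and its part in the Lars2 values was not tested. Of the amino acid response genes 19 of 29 were lower, led by Atf5 (-3.37), and 2 higher, led by Psat1, a serine synthesis gene (0.48). Aimp1 fell (-0.46) and the other 2 scaffold genes rose, led by Eef1e1 (0.49). The charging partners had 7 of 17 lower (Pstk, -0.68) and 2 higher (Dtd2, 0.22), all 6 mitochondrial partners were higher (Qrsl1, 1.07), and so were 6 of 10 interferon genes (Gbp2, 1.44). The 12 synthetases on the ATF4 list had 3 higher and 4 lower (median 0.03), and the 8 cytosolic or dual enzymes off it 6 higher and 0 lower (median 0.51).

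At pH 7.4 without IL-2 against 0 h, 27 members were lower and 5 higher, where 38.3% of all genes were lower and 36.9% higher, with a median of -0.96. Cars (-1.82), Yars (-1.81), Iars (-1.67), Gars (-1.64) and Aars (-1.62) had the largest falls, Wars fell by 1.04, and 19 of the 20 cytosolic or dual enzymes were lower (all but Qars, -0.02). The higher members were mitochondrial: Cars2 (0.50), Fars2 (0.36), Tars2 (0.31), Hars2 (0.19) and Wars2 (0.18), of which the last pair did not hold under every alternative. Lars2 fell by 0.27 and was lost likewise, as were Pars2, Vars and Vars2. All 29 amino acid response genes were lower (Slc7a5, -4.22). Aimp2 (-2.56) and 1 other scaffold gene fell, as did 12 of 17 charging partners (the tRNA exporter gene Xpot, -1.48) with 2 higher (Prorsd1, 0.30), and 3 of 6 mitochondrial partners (Tsfm, -0.96). Of the interferon genes 6 rose (Gbp2, 1.36) and 2 fell (Psmb8, -0.74). The comparisons at pH 7.4 against 0 h share the 0 h libraries, and the values are given side by side only.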

How the data were processed

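The authors trimmed single reads with cutadapt 1.8, aligned them to GRCm38 with STAR 2.5.2b and counted reads per gene with HTSeq 0.6.1, per the labels and the submitters' processing notes; the deposited values are raw counts, 1 table a library. The strand setting and the annotation release are not given in the sources used here. Reads outside genes were left out of library sizes. Genes were kept with edgeR's filter (minimum count 10), which left 13819. Counts were scaled by TMM and tested in 1 fit over all 35 libraries with edgeR 4.0.16 (R 4.3.3, quasi-likelihood, replicate number as a block, Benjamini-Hochberg threshold 0.05), after a test on simulated data. The study used paired tests. Libraries of different groups were correlated after the group mean of each gene was subtracted from the log2 CPM. Of these correlations 95 of 105 between same-numbered libraries were over 0.1, and the median between differently numbered ones was -0.075. DESeq2 1.42.0, relative log expression (RLE) size factors, other filters, no block, only the groups compared, members of which at least 95% of 50-base windows were unique, and leaving out each replicate were the alternatives. CPM use TMM-scaled library sizes.

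Members and lists were chosen with earlier results of these data known. Some items are not reported here. Otherwise every member was named, and replicate values were given for the largest changes (5 falls and up to 3 rises in acid with IL-2, 3 each for acid without IL-2, IL-2 at pH 7.4, the interaction and pH 7.4 with IL-2 against 0 h, 2 for the pH 7 contrasts). Named too were members called against the main direction, Wars and Lars2 throughout, and the largest rise and fall of each list. No source used here says that replicates came from separate mice, so p-values measure the spread between these samples. Comparisons that share a group share its libraries.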

Additional observations from a re-analysis of the deposited data

Results flagged for a closer look

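In 6 of the 71 sets of 5 replicates tested, the highest library stood far from the rest by Dixon's test (critical value 0.71), and chance flags about 1 set in 20. These were Ears2 (6.38 CPM), Hars (44.2 CPM) and Mars (49.5 CPM) at pH 7.4 without IL-2, Tars2 at pH 6.6 without IL-2 (81.3 CPM), and Wars (179.8 CPM) and Wars2 (16.5 CPM) at pH 7.4 with IL-2.

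The acid response differed with and without IL-2 by the interaction term of the edgeR fit. The term was -1.86 for Rars (adjusted p = 3.73e-16), -1.70 for Farsb (adjusted p = 1.89e-13), -1.66 for Gars (adjusted p = 1.54e-16), -1.19 for Wars (adjusted p = 1.93e-08) and -0.67 for Lars2 (adjusted p = 0.000541). It was positive for Wars2 (0.76, edgeR adjusted p = 6.59e-08), Fars2 (0.60, adjusted p = 0.000147) and Hars2 (0.37, adjusted p = 0.000278). The sign was the same in 5 of 5 numbered sets for each of these.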

How the results depend on the processing

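Of the 260 calls on members over 11 contrasts, 258 were kept with DESeq2, 255 with RLE size factors, 253 with a stricter filter, 247 without the replicate block, 243 with a looser filter and 235 to 246 without 1 replicate, and 11 were lost with only the groups compared. Under these alternatives 0 reversed. Without the block, members called went from 32 to 31 in acid with IL-2, from 20 to 17 at pH 7 with IL-2 and from 28 to 26 in acid without IL-2. With only the groups compared, members called went from 0 to 1 at pH 7 without IL-2, where calls over all genes went from 232 of 13819 to 942 of 12874, and from 9 to 19 for IL-2 at pH 6.6, where they went from 3278 of 13819 to 5369 of 12514. The median for IL-2 at pH 7 was 0.851 with the stricter filter. Leaving out 1 replicate, the median over members ranged from -0.138 to -0.05 in acid without IL-2, where the lowest was without replicate 4, from 1.107 to 1.199 for IL-2 at pH 7.4, from 0.815 to 0.929 for IL-2 at pH 7, from -1.057 to -0.89 for the interaction, and from -0.983 to -0.866 for pH 7.4 without IL-2 against 0 h. The cause of these shifts was not tested.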
